A study of Mus musculus with 7 samples.

Results

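Dendritic cell subset genes were described as 9 genes whose rows were taken from the expression table by symbol: Xcr1, Clec9a, Batf3 and Ly75 for the conventional dendritic cells that cross-present antigen (cDC1), Zbtb46, Flt3 and Itgax for dendritic cells as a whole, Siglech for plasmacytoid dendritic cells, and Clec10a for the second conventional subset (cDC2) and macrophages. All 9 were among the 17920 genes of the table and above 0 in all 7 libraries. The study asked how loss of GdX, the ubiquitin-like protein encoded by the X-linked gene Ubl4a, alters RNA levels in mouse spleen after lipopolysaccharide (LPS), the bacterial cell wall component sensed by Toll-like receptor 4. Whole spleen RNA came from C57BL/6 mice aged 8 weeks that had received 20 mg/kg LPS intraperitoneally. The groups were wild type 90 min after LPS (n = 2 libraries), mice labelled GdX-/- (GdX-/Y in the treatment text) 90 min after LPS (n = 2), wild type 6 h after LPS (n = 2) and GdX-/- 6 h after LPS (n = 1). Every group had received LPS, and no spleen without LPS was analysed here. The design text counts mice, so each library is read as 1 animal, and the lone 6 h GdX-/- library has no replicate.

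Dendritic cells take up antigen, move to T cell zones and present it. The cDC1 lineage depends on the transcription factor BATF3 and carries the chemokine receptor XCR1 and the dead-cell receptor CLEC9A, which let it meet XCL1-secreting lymphocytes and sample damaged cells. Plasmacytoid dendritic cells are known for type I interferon secretion, and all dendritic cell lineages need FLT3 signalling to develop. In the spleen, strong Toll-like receptor signals are known to mature dendritic cells and to change their number and position within hours.

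Levels are given in FPKM, which counts fragments relative to transcript length and to the library's total. The depth, estimated from the low values, was 19200000 to 21700000 fragments per library. Ubl4a alone overlapped between the genotypes at 90 min, with 4.03 and 5.69 FPKM in GdX-/- and 5.62 and 7.5 in wild type. At 6 h it was at 10.56 in the lone GdX-/- library, slightly below the 11.88 and 14.01 of wild type. Ubl4a and its overlapping entry Gm44504 summed to 5.04 and 7.55 FPKM in GdX-/- and 21.02 and 22.02 in wild type at 90 min, and to 11.22 against 62.98 and 38.05 at 6 h, so that sum was lower in GdX-/- at both times. The second GdX-/- library at 90 min stood apart in neutrophil markers, which summed to 4900.62 FPKM against 1126.81 in the first, and in dendritic cell maturation genes, which summed to 844.03 against 2385.42. In a bulk sample, fewer cells of a type and less RNA per cell cannot be told apart.

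Batf3, the AP-1 family factor of the cDC1 lineage, had the highest FPKM of the 9 genes in every library, from 29.09 to 79.54. It did not rise and fall with the other cDC1 members over the 7 libraries. Its Pearson r on log2(FPKM + 1) was -0.46 with Clec9a, -0.32 with Xcr1 and -0.77 with Ly75, without a test. Xcr1 was rank 8 or 9 of the 9 in each library, from 0.36 to 1.63 FPKM. Between them, the means over all 7 libraries were 8.78 FPKM for Itgax, 8.20 for Siglech, 7.62 for Flt3, 5.69 for Zbtb46, 5.00 for Ly75, 2.59 for Clec10a and 2.39 for Clec9a. In this order only Batf3 stood clear of its neighbour, since the highest Itgax library had 13.27 FPKM, and the ranges of every other neighbouring pair overlapped over the libraries. Of the 9 genes, 8 had a mean of at least 1 FPKM and entered the tests. Xcr1, with a mean of 0.933, did not, and its values are given without a test.

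**Figure D1:**
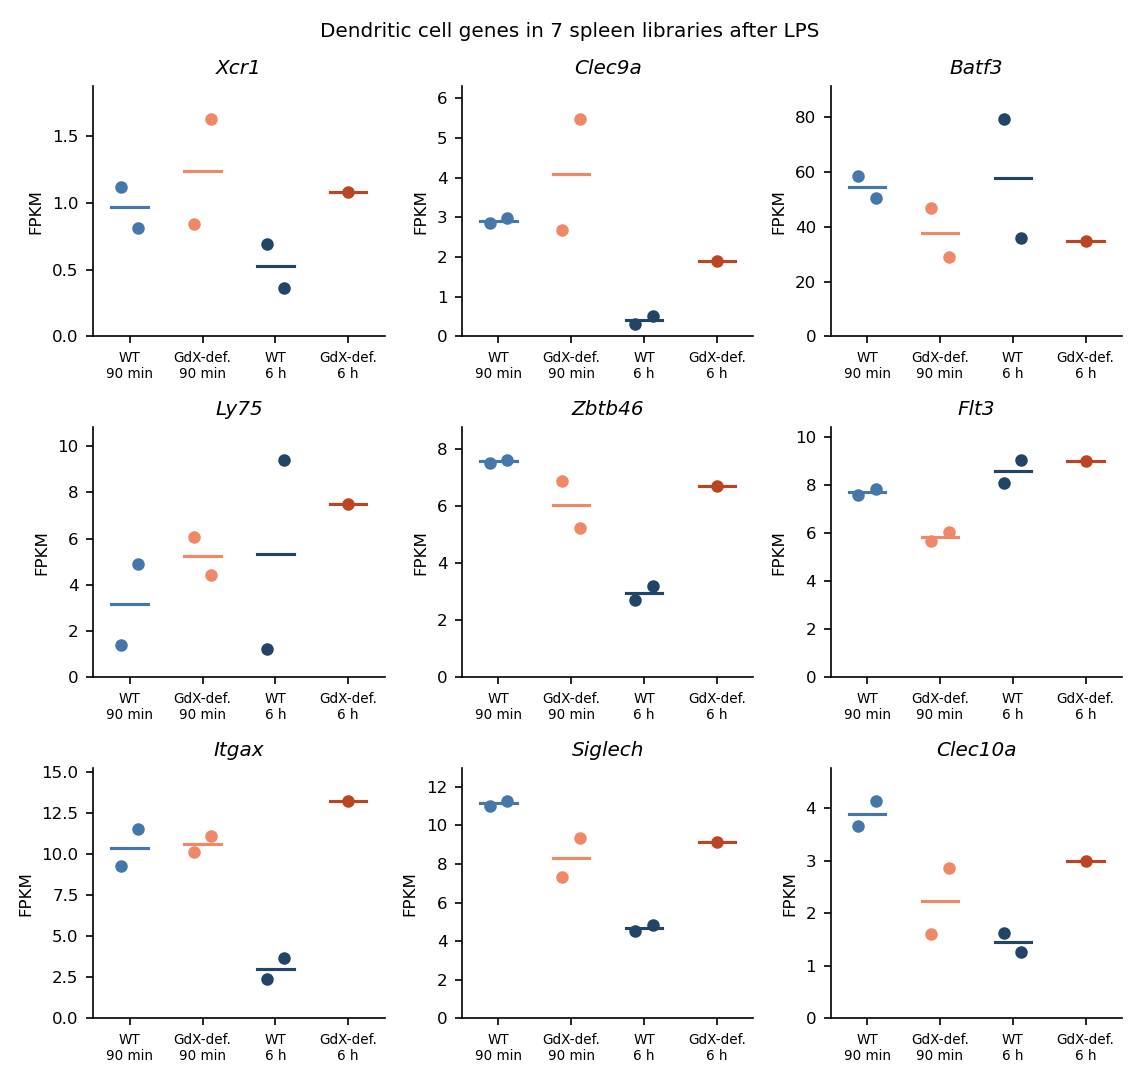
FPKM of each of the 9 genes (vertical axis, starting at 0) in the 7 libraries, grouped by genotype and time after LPS; dots are libraries and bars are group means, with GdX-def. standing for GdX-/-. The 2 wild-type libraries at 6 h lie lowest of all 7 for Clec9a, Zbtb46, Itgax and Siglech and for Xcr1, which was not tested. Batf3 and Ly75 spread widely within wild type at 6 h.

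The clearest pattern over time was in wild type, where 4 of the 8 tested genes had lower RNA levels at 6 h than at 90 min. They were Itgax (chr7:128129526-128150657), Clec9a (chr6:129408862-129424764), Zbtb46 (chr2:181371009-181493262) and Siglech (chr7:55768154-55779448; RefSeq genes on GRCm38.p6), and no member was called higher. Over all 11378 tested genes, 10.7% were called in this comparison, with 6.32% lower and 4.39% higher (limma, Benjamini-Hochberg adjusted p under 0.05). The median difference was -1.05 over the 8 genes and 0.05 over all tested genes, on the log2(FPKM + 1) scale used for all differences here, which understates the change of low genes.

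Itgax encodes CD11c, the integrin alpha chain that defines most dendritic cells. It was at 9.30 and 11.52 FPKM in wild type at 90 min and at 2.41 and 3.66 at 6 h, and the groups did not overlap. The group means of 10.4 ± 1.57 and 3.04 ± 0.884 FPKM (SD, n = 2 each) are a 3.43-fold drop, and the difference was -1.51 (SE 0.30, adjusted p = 0.0166). Zbtb46, the transcription factor that marks conventional dendritic cells and their committed precursors, had 7.53 and 7.63 FPKM at 90 min and 2.70 and 3.19 at 6 h. Its difference was -1.12 (SE 0.29, adjusted p = 0.0394), and again the 6 h libraries lay below both 90 min libraries.

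Clec9a, the cDC1 receptor for actin filaments exposed by dead cells, went from 2.85 and 2.99 FPKM to 0.31 and 0.50. This was the steepest ratio of means among the 9 genes, 7.21-fold, and the difference was -1.48 (SE 0.31, adjusted p = 0.0196). The 6 h level rests on an estimated 9 and 14 fragments, against 79 and 83 at 90 min, so its size is loosely known. Siglech, the plasmacytoid surface lectin that signals through DAP12, had 11.02 and 11.28 FPKM at 90 min and 4.5 and 4.82 at 6 h, with a difference of -1.10 (SE 0.29, adjusted p = 0.0397). Both genes had 6 h libraries close to each other and clear of the 90 min pair.

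The other members did not pass the test. With Clec10a, 5 of the 8 tested genes had both 6 h libraries below both 90 min libraries, where 27.6% of all tested genes did, and 1, Flt3, had both above, as did 30.3%. Clec10a, a C-type lectin for galactose-type sugars, had 3.65 and 4.14 FPKM at 90 min and 1.62 and 1.27 at 6 h, without overlap, and a difference of -1.0 (adjusted p = 0.057). Xcr1 had 1.12 and 0.81 FPKM and then 0.69 and 0.36, a difference of -0.37 with no test. Flt3, the cytokine receptor of dendritic cell progenitors and mature dendritic cells, had 7.59 and 7.84 FPKM and then 8.08 and 9.06, both 6 h libraries slightly above the 90 min pair. Its difference was 0.13, with a 95% interval from -0.49 to 0.76 (adjusted p = 0.794).

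Because Flt3 and the 4 lower genes were measured in the same libraries, their ratios do not depend on library scaling. Itgax over Flt3 was 1.23 and 1.47 in wild type at 90 min and 0.298 and 0.404 at 6 h. Zbtb46 over Flt3 was 0.992 and 0.973, then 0.334 and 0.352, and Siglech over Flt3 was 1.45 and 1.44, then 0.557 and 0.532. Clec9a over Flt3 was 0.375 and 0.381, then 0.038 and 0.055. Each ratio was thus lower at 6 h whatever the scaling. The 4 genes are those called lower and Flt3 was not called, so these ratios restate the calls and add no support. They were not tested, and they do not show that Flt3 itself was unchanged.

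**Figure D2:**
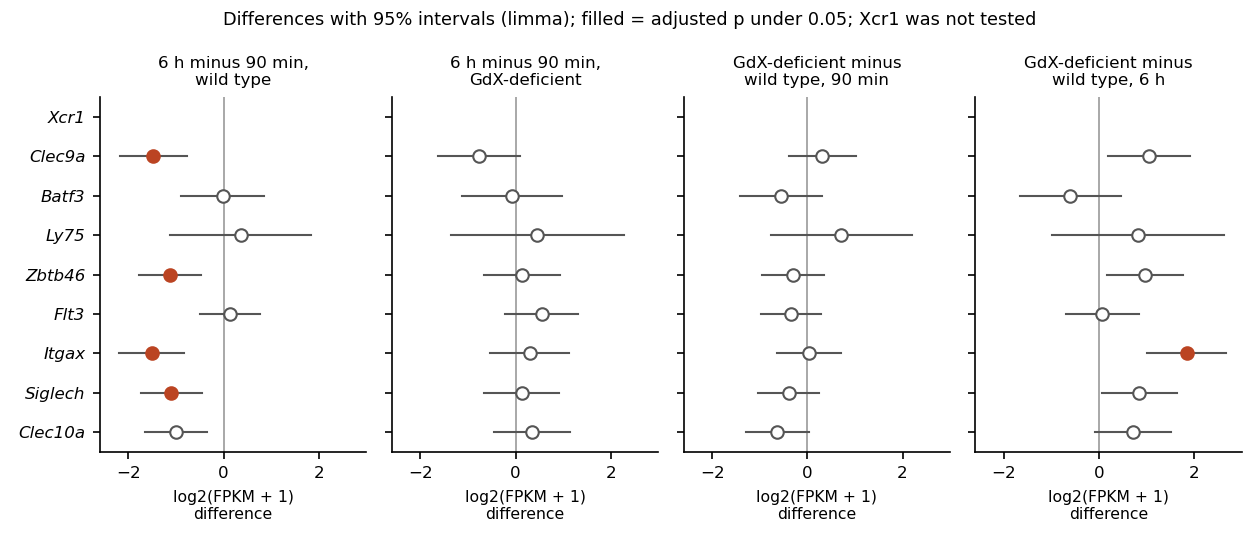
Differences in log2(FPKM + 1) (horizontal axis) for each gene in 4 comparisons, with 95% intervals from limma; filled points have an adjusted p under 0.05 and Xcr1 was not tested. Filled points are Itgax, Clec9a, Zbtb46 and Siglech for time in wild type, and Itgax alone for genotype at 6 h.

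The calls over time in wild type rest on few libraries. Leaving out either one of the wild-type libraries at 90 min, Clec9a was the only member called (1 gene in each case, with 450 and 550 called over all genes), and with no filter on low values none was, with adjusted p from 0.0516 for Itgax to 0.0745 for Zbtb46. Without the first wild-type library at 6 h, Zbtb46 and Siglech were not called, with adjusted p of 0.0794 and 0.0685, and Ly75 was. Scaling on genes other than haemoglobin kept the calls of Clec9a and Itgax, and changed the split of all genes from 499 higher and 719 lower to 191 and 517. The differences kept their sign with 1 library left out. They ranged from -1.74 to -1.29 for Itgax, -1.58 to -1.39 for Clec9a, -1.21 to -1.03 for Zbtb46 and -1.14 to -1.06 for Siglech.

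Upstream sequences are shown for 3 of the genes that fell in wild type, Itgax, Siglech and Clec9a. That of Flt3, which did not pass the test, is set beside them. The windows are the 250 bases before the RefSeq start of each gene on GRCm38.p6, from a table of RefSeq starts in which 8 of the 9 genes were matched (Clec10a was not). The start used lies 24 bases inside the annotated gene for Itgax and 30 for Siglech, so the last bases of these windows overlap the gene. For Zbtb46 the start used lies 68874 bases inside the gene, and its window is not shown. They lie at chr7:128129300-128129549 (+) for Itgax, chr7:55767934-55768183 (+) for Siglech, chr6:129408612-129408861 (+) for Clec9a and chr5:147400490-147400739 (-) for Flt3, each 5′ to 3′ on the gene's strand. Capitals mark matches, on either strand, to 4 motifs of factors known from dendritic cells: TGANTCA (AP-1), GAAA followed by any 2 bases and GAAA (IRF), GAGGAAG (PU.1) and CACGTG (E-box).
Itgax: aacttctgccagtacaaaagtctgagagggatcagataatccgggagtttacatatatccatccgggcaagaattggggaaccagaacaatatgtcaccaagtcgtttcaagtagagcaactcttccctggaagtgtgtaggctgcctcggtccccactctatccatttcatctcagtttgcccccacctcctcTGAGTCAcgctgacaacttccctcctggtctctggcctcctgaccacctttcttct
Siglech: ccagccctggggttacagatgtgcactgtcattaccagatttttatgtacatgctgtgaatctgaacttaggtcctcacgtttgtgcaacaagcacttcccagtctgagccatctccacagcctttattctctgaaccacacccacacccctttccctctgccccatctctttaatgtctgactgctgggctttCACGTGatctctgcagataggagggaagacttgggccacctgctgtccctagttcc
Clec9a: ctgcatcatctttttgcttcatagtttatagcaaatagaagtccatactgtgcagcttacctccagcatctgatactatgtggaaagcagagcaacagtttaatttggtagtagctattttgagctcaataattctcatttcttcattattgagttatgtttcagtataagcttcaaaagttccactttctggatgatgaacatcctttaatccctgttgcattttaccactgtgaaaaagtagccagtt
Flt3: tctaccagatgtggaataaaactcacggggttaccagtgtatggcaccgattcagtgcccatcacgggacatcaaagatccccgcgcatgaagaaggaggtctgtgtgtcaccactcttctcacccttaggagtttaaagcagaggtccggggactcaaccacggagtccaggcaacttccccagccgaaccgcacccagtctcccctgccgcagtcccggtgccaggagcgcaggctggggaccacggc
Itgax had 1 match, an AP-1 motif whose first base lies at -56 from the start, and AP-1 matches occur in 6.75% of the 32851 windows of this length. Siglech had 1 match, an E-box at -56, which 6.02% of windows hold. Clec9a and Flt3 had 0 matches in these windows, where 2.98% of all windows hold the IRF motif and 10.61% the PU.1 motif. A match is a run of letters and no evidence of binding, and no motif was found in more than 1 of the 4 windows shown. Among the windows not shown, Zbtb46 held an AP-1 match at -61, Xcr1 an E-box at -227, and Batf3 a PU.1 match at -153 and an E-box at -247, and Ly75 held 0 matches.

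At 6 h, 1 of the 8 tested genes, Itgax, was higher in the single GdX-/- library than in wild type and passed the test. In all, 5 of the 8 lay above both wild-type libraries, a share near the 54.9% of all tested genes that did. Over all tested genes 3.96% were called, 2.91% higher and 1.05% lower in GdX-/-. This comparison uses the same wild-type 6 h libraries as the time comparison, so both draw on the same low wild-type values. It sets 1 library against 2, and the lone library is assumed to vary like the other groups.

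Itgax was at 13.27 FPKM in the GdX-/- library, against 2.41 and 3.66 in wild type, 4.37-fold above the wild-type mean. The difference was 1.84 (SE 0.37, 95% interval 1.01 to 2.67, adjusted p = 0.0364), and the GdX-/- value was the highest of all 7 libraries. Clec9a was at 1.89 FPKM against 0.31 and 0.50, a difference of 1.04 with an adjusted p of 0.12. Zbtb46 was at 6.71 FPKM against 2.70 and 3.19, a difference of 0.97 with an adjusted p of 0.12.

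Siglech was at 9.15 FPKM against 4.5 and 4.82 (difference 0.84, adjusted p = 0.152), and Clec10a at 3.00 against 1.62 and 1.27 (0.71, adjusted p = 0.219). Flt3 was at 9.02 FPKM against 8.08 and 9.06, inside the wild-type range, with a difference of 0.07 and a 95% interval from -0.70 to 0.84. Xcr1, without a test, was at 1.08 FPKM against 0.69 and 0.36. Batf3 lay below both wild-type libraries, as did 25.3% of all tested genes.

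The median difference over all tested genes was itself 0.32 at 6 h, and 0.83 over the 8 members. Quantile normalization moved the median of all genes to -0.02, with 166 genes higher and 104 lower in place of 331 and 119, and scaling on genes other than haemoglobin moved it to 0.55, with 216 and 39. Itgax differed by 1.36 under quantile normalization, still past the threshold, and by 2.06 under the haemoglobin-free scaling, where its adjusted p was 0.0535. Among the members that had not passed, quantile normalization lowered Clec9a from 1.04 to 0.47, Zbtb46 from 0.97 to 0.39, Siglech from 0.84 to 0.34 and Clec10a from 0.71 to 0.10. With no filter on low values the adjusted p of Itgax was 0.0759, the highest of a range that began at 0.00199 over 14 alternatives.

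At 90 min none of the 8 tested genes was called between the genotypes, where 0.0176% of all tested genes were (2 genes, limma). At an unadjusted p under 0.05 the counts were 0 members and 862 genes. Itgax overlapped between the genotypes, at 10.16 and 11.12 FPKM in GdX-/- and 9.30 and 11.52 in wild type, with a difference of 0.03 and a 95% interval from -0.65 to 0.72. Clec10a had the lowest unadjusted p of the members, with 1.60 and 2.85 FPKM against 3.65 and 4.14 and a difference of -0.63 (adjusted p = 0.621).

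Flt3 was at 5.68 and 6.04 FPKM in GdX-/- against 7.59 and 7.84 at this time, a difference of -0.35 (adjusted p = 0.659). Batf3, Zbtb46, Flt3, Siglech and Clec10a had both GdX-/- libraries below both wild-type libraries, 5 of 8 genes, where 23.4% of all tested genes did, and 0 of 8 had both above, where 24.1% did. Scaling on genes other than haemoglobin moved these differences towards 0, for Flt3 to -0.16, Zbtb46 from -0.29 to -0.11, Siglech from -0.39 to -0.20 and Batf3 from -0.55 to -0.35, while the median of all genes went from 0.07 to 0.25. Quantile normalization, with a median of 0.01, gave -0.51 for Flt3, -0.46 for Zbtb46, -0.54 for Siglech, -0.82 for Clec10a and -0.48 for Batf3. With 1 library left out the ranges were -0.88 to -0.22 for Batf3, -0.46 to -0.12 for Zbtb46, -0.38 to -0.31 for Flt3, -0.55 to -0.24 for Siglech and -0.91 to -0.34 for Clec10a; the smallest values of Batf3 and Zbtb46 came without the second GdX-/- library and those of Siglech and Clec10a without the first. Red cell precursor markers summed to 531.10 to 541.91 FPKM in these GdX-/- libraries against 233.53 to 276.73 in wild type (8 of 8 positive, 0 called, median 0.97). Monocyte and macrophage markers had 3 of 13 positive and 10 negative differences, with 0 called and a median of -0.30, beside -0.32 for the 8 members. Neutrophil markers had 9 of 10 positive (median 1.19) and natural killer cell markers 8 of 8 (0.40). B cell markers had 7 of 10 positive (0.26) and T cell markers 5 of 10 (0.01), with 0 called in each list. The part of these lists in the member differences was not tested. Clec9a was at 2.68 and 5.49 FPKM against 2.85 and 2.99, and Xcr1 at 0.84 and 1.63 against 1.12 and 0.81. For both of these cDC1 genes the higher value is that of the second GdX-/- library, the one with high neutrophil markers, and without it the Clec9a difference went from 0.32 to -0.09.

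Within GdX-/- mice, 6 h against 90 min gave 0 called members and 0 called genes of 11378 (limma, 0% of tested genes). The count of genes was 231 and 236 without the first or second wild-type library at 6 h, and 61 and 60 without those at 90 min, with 0 members in each. At an unadjusted p under 0.05 there were 0 members and 910 genes. Itgax went from 10.16 and 11.12 FPKM to 13.27, a difference of 0.30 with a 95% interval from -0.54 to 1.13. Zbtb46 went from 6.88 and 5.22 to 6.71 and Siglech from 7.32 and 9.32 to 9.15, each with the 6 h value inside the 90 min range. Clec9a was the exception, at 1.89 FPKM below both 90 min libraries, 2.68 and 5.49, with a difference of -0.76 (adjusted p = 0.702). It was the 1 tested member below both, as were 15.8% of all tested genes, and 4 members (Ly75, Flt3, Itgax and Clec10a) lay above both, as did 56.8%.

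Whether the time course differed between the genotypes was tested directly as an interaction, and no member was called (0.0703% of all tested genes, 8 genes, were). Itgax had the largest member value, 1.81 (SE 0.48, adjusted p = 0.206), followed by Clec10a with 1.34 (adjusted p = 0.345), Zbtb46 with 1.26 (adjusted p = 0.367) and Siglech with 1.23 (adjusted p = 0.376). At an unadjusted p under 0.05 these were 4 members among 1136 genes. Without the second wild-type library at 6 h, Itgax passed with 2.03 (adjusted p = 0.0477, in a range from 0.0477 to 0.672 over 14 alternatives), among 238 called genes in place of 8, and without the first one 169 genes and 0 members were called. With both times in 1 model, genotype gave 0 called members (0.0439% of genes, 5 genes, were called) and 1 member, Clec9a, at an unadjusted p under 0.05, among 3071 genes. Without the first GdX-/- library at 90 min this model called 1674 genes, Clec9a among them, and without the second wild-type library at 90 min 242 genes and 0 members.

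Batf3 and Ly75 differed widely between replicates of one group, and neither passed a test with all libraries. Ly75 encodes DEC-205, the endocytic receptor of cDC1 cells. It was at 1.41 and 4.92 FPKM in wild type at 90 min, 1.24 and 9.42 in wild type at 6 h, 6.07 and 4.43 in GdX-/- at 90 min and 7.51 in GdX-/- at 6 h. The gap within wild type at 6 h, a difference of -2.22, exceeded that of 99.7% of tested genes in absolute size.

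Batf3 was at 58.69 and 50.68 FPKM in wild type at 90 min, 79.54 and 36.09 in wild type at 6 h, 46.72 and 29.09 in GdX-/- at 90 min and 34.95 in GdX-/- at 6 h. Its wild-type libraries at 6 h were 1.12 apart, at percentile 94.3. Ly75, with a transcript of 5172 bases, was lower in the first wild-type library of each pair, and Batf3, with 801 bases, was higher in it. Across the 11180 tested genes with a known length, the difference between the first and second library was related to transcript length in wild type, with a Spearman rho across genes of -0.591 at 6 h and -0.446 at 90 min, against -0.166 in GdX-/- at 90 min. Genes are not independent replicates. With the length trend removed from each library, Batf3 went from -0.60 to -0.15 for genotype at 6 h and from -0.55 to -0.19 at 90 min, and Ly75 from 0.82 to 0.56 and from 0.71 to 0.52, while over time in wild type they were -0.03 and 0.41.

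**Figure D3:**
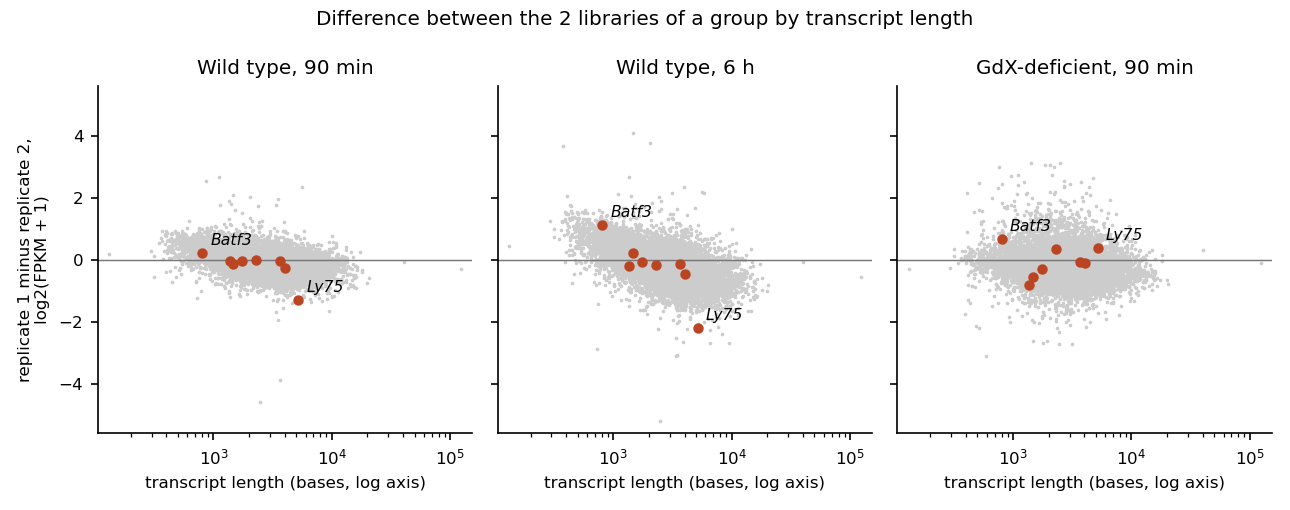
First minus second library of each group with 2 libraries, in log2(FPKM + 1), against transcript length in bases on a log axis; grey points are tested genes and red points the 8 tested dendritic cell genes. In wild type at 6 h Ly75 lies at -2.22 and Batf3 at 1.12, on opposite sides of 0, while the other members lie within 0.45 of it.

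Without the second wild-type library at 6 h, Ly75 and Batf3 were called between genotypes at 6 h, with 1.93 and -1.16, among 3035 called genes in place of 450. Without the first one, Ly75 was called over time in wild type with 1.46, and its genotype difference at 6 h changed sign to -0.29. With all libraries, the time differences in wild type were 0.36 for Ly75 (95% interval -1.13 to 1.84) and -0.02 for Batf3 (-0.89 to 0.84), and both intervals are wide.

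Other genes of the dendritic cell subsets were taken as lists, written with earlier results on these data known. In counts for these lists and the marker lists below, fell, rose, higher and lower mean called at an adjusted p under 0.05 (limma). Over all tested genes, 6.32% were called lower and 4.39% higher over time in wild type. Of 18 listed cDC1 genes 14 were tested, of which 4 fell and 0 rose over time in wild type, with a median of -0.75. Cadm1, a cell adhesion protein of cDC1 cells, went from 8.61 and 7.04 FPKM to 1.91 in both 6 h libraries, a difference of -1.60 (adjusted p = 0.0116). Btla, an inhibitory receptor that B cells also carry, went from 131.83 and 149.26 to 35.66 and 61.36 (-1.56, adjusted p = 0.0181).

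Of 15 tested cDC2 genes, 3 fell and 1 rose, with a median of -0.38. Cd209a, a C-type lectin of cDC2 and monocyte-derived cells, went from 7.62 and 7.69 FPKM to 0.23 and 0.13, a difference of -2.88 (adjusted p = 0.00129). Clec4a4, the lectin DCIR2, went from 3.49 and 2.72 FPKM to 0.16 and 0.41 (-1.68, adjusted p = 0.00682). Tbx21, which encodes T-bet and is also expressed by natural killer and T cells, was the gene that rose, from 5.30 and 8.26 FPKM to 24.92 and 33.72 (1.97, adjusted p = 0.00766).

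Of 22 tested plasmacytoid genes, 4 fell and 0 rose, with 17 negative and 5 positive differences and a median of -0.47. The summed FPKM of this list overlapped between the times, at 1593.44 to 1896.52 at 90 min and 1698.74 to 2320.28 at 6 h. Among those that fell, Cd209d was at 4.38 and 4.13 FPKM and then 1.14 and 0.79. The lectin-like receptor Klra17 was at 2.33 and 2.22 and then 0.61 and 0.25. Of 20 maturation and migration genes, 3 fell and 1 rose, with a median of -0.52. Samsn1, a signalling adaptor, went from 230.25 and 202.81 FPKM to 41.07 and 49.41, and Apol7c from 146.40 and 139.13 to 41.48 and 45.97. Cacnb3, a calcium channel subunit used as a marker of migratory dendritic cells, rose from 4.37 and 7.13 to 14.74 and 29.77.

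Of 21 ligands, receptors and signalling partners of the members, 5 fell and 0 rose, with a median of -0.50. They included the ligands of 2 members. Flt3l, the ligand of FLT3, went from 20.66 and 17.10 FPKM to 5.06 and 4.73, a difference of -1.75 (adjusted p = 0.00856). Xcl1, the ligand of XCR1 made by natural killer and CD8 T cells, went from 17.62 and 15.39 to 5.16 and 3.18 (-1.78, adjusted p = 0.01). The ligand Flt3l thus fell in the same libraries in which its receptor's RNA lay slightly above its 90 min level.

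In the genotype comparison at 6 h, 3.96% of all tested genes were called, against 10.7% over time in wild type. Of the cDC1 genes 1 was higher and 1 lower in GdX-/- (median 0.71), of the cDC2 genes 2 higher and 1 lower (0.53), of the plasmacytoid genes 3 higher and 0 lower (0.61), of the maturation genes 2 higher and 0 lower (-0.28) and of the ligands and partners 1 higher and 0 lower (0.74), beside 0.32 over all tested genes. Flt3l was at 16.79 FPKM in GdX-/- against 5.06 and 4.73 in wild type, a difference of 1.59 (adjusted p = 0.0436). Clec4a4 was at 2.69 against 0.16 and 0.41 (1.53, adjusted p = 0.0389), and Tbx21 at 8.01 against 24.92 and 33.72 (adjusted p = 0.0456).

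Ifi205, an interferon-inducible gene expressed in cDC1 cells, was the lower cDC1 gene, at 61.23 FPKM against 190.11 and 181.23. Snx22, a sorting nexin of that list, was at 6.41 against 0.84 and 1.38. Spib, a transcription factor of plasmacytoid dendritic cells and B cells, was at 152.55 against 22.08 and 45.58, Ly6c2 at 205.82 against 86.93 and 68.76, and the inhibitory receptor Cd300a at 34.42 against 11.32 and 11.36. Among maturation genes Apol7c was at 170.69 FPKM against 41.48 and 45.97, and Icosl, the ligand of ICOS, at 79.93 against 13.89 and 21.20.

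At 90 min none of these 5 lists held a called gene between the genotypes. The lowest list median was -0.46, for maturation and migration genes. Its 2 genes with the highest mean were Cd83, at 539.48 and 141.86 FPKM in GdX-/- against 727.13 and 651.39 in wild type, and Il4i1, at 486.67 and 57.33 against 482.76 and 623.16. In both the second GdX-/- library holds the low value, while the first lies near or inside the wild-type range.

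Lists of markers of other spleen cells did not all behave alike. Over time in wild type 4 of 10 B cell markers and 4 of 10 T cell markers fell and 0 rose, with medians of -1.23 and -1.02. Of 13 monocyte and macrophage markers 6 fell and 1 rose, with a median of -0.86. Over all tested genes 6.32% were called lower and 4.39% higher. By sign alone, the B and T cell lists each had 9 negative differences and 1 positive, and the monocyte and macrophage list 10 and 3. Summed B cell markers ranged from 1659.23 to 1741.38 FPKM in wild type at 90 min, 559.89 to 632.19 in wild type at 6 h and 1447.57 to 2456.44 in GdX-/- at 90 min, and were 2092.95 in GdX-/- at 6 h. Summed T cell markers were 469.79 to 517.65, 240.27 to 242.17, 397.00 to 520.14 and 426.89 FPKM in the same order, with no marker of either list at 0 in any library.

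Red cell precursor markers fell for 8 of 8 genes over time in wild type, with a median of -1.71, and 7 of 8 were higher in GdX-/- at 6 h. Neutrophil markers had 0 of 10 genes called in either comparison, with medians of -0.05 over time in wild type and 1.58 between the genotypes at 6 h. At 6 h, where 2.91% of all tested genes were called higher in GdX-/- and 1.05% lower, marker lists were mostly higher. For B cell markers 4 of 10 and for T cell markers 2 of 10 were higher and 0 lower, with medians of 1.9 and 1.06. Of 13 monocyte and macrophage markers 3 were higher and 0 lower, with a median of 0.95, and the medians of these 3 lists lie above the 0.83 of the 8 members. Of 8 natural killer cell markers 3 fell and 0 rose over time in wild type (median -0.61), with 7 negative differences and 1 positive. The positive one, Gzma, went from 106.47 and 88.78 FPKM to 192.95 and 134.69 and was not called. Summed, this list was at 156.88 to 178.13 FPKM in wild type at 90 min and 171.35 to 223.12 at 6 h. Of the same 8 markers 1 was higher in GdX-/- at 6 h (median 1.18). The part of cell composition in the member differences was not tested.

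**Figure D4:**
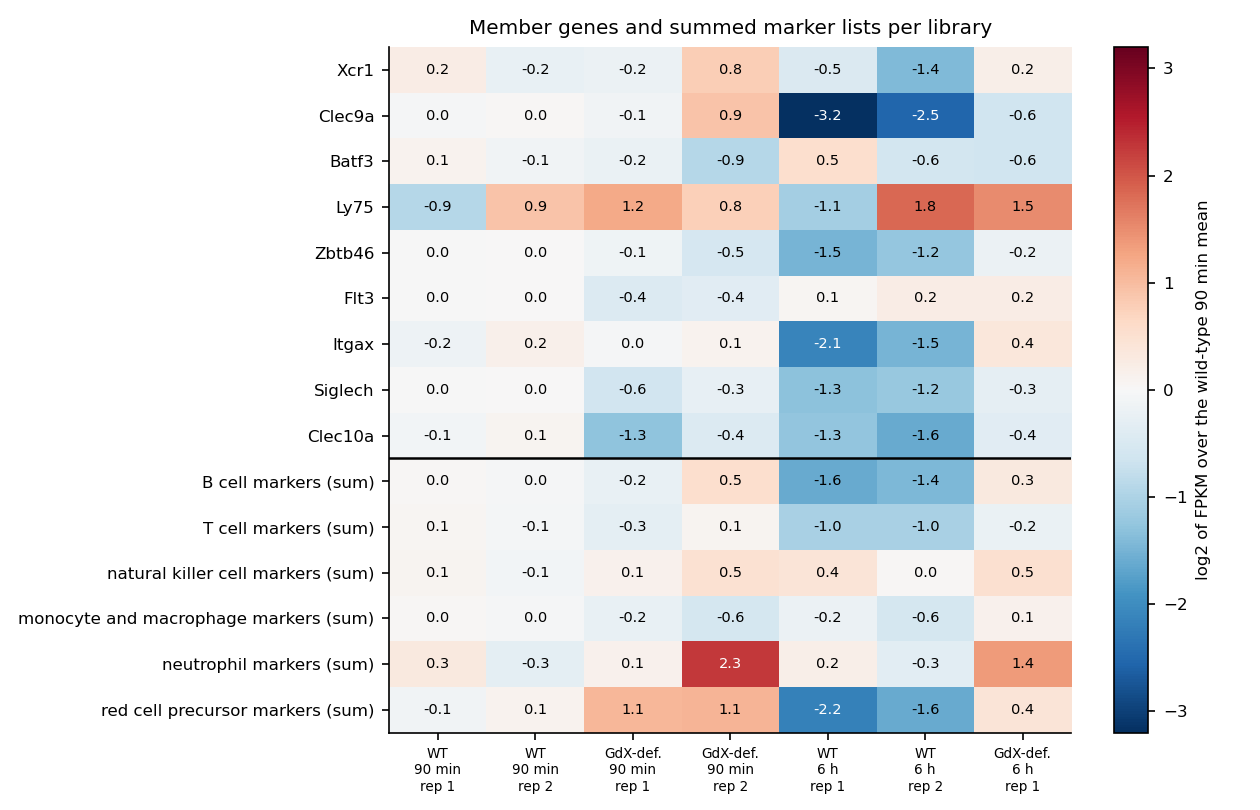
log2 of FPKM relative to the wild-type mean at 90 min (colour and printed number) for the 9 genes and, under the black line, for summed markers of other cell types, in each of the 7 libraries. In wild type at 6 h Clec9a reads -3.24 and -2.55, and summed B cell markers are lower in the same libraries, whereas the GdX-/- library at 6 h lies within 0.64 of the reference for every member except Ly75.

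The genes with profiles nearest to each member were sought among tested genes for the 7 members that varied by at least 1 on the log2 scale, by the Euclidean distance between profiles centred on each gene's mean over the 7 libraries. For Itgax they were Cd4, at a distance of 0.28, and Klri1, at 0.34. Cd4, the T helper coreceptor that part of the splenic dendritic cells also carry, was at 16.36 and 20.26 FPKM in wild type at 90 min, 5.15 and 7.72 in wild type at 6 h, 19.79 and 23.78 in GdX-/- at 90 min and 22.07 in GdX-/- at 6 h. Zbtb46 was nearest to Fam49a (0.20) and to Calr, an endoplasmic reticulum chaperone (0.21). Clec9a was nearest to Arhgap18 (0.32) and the T cell gene Themis (0.35).

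Siglech was nearest to Cmtm7 (0.25) and Limd2 (0.26), and Clec10a to Frat2 (0.41) and Creld1 (0.45). Batf3 was nearest to Ndufb2, a subunit of respiratory complex I (0.34), and to Cyba (0.35). Ly75 was nearest to Ntng2 (0.50) and to Piezo1, a mechanosensitive ion channel (0.57), the widest distances of these 7 members. These are descriptions of 7 libraries, in which group differences and library differences enter alike.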

How the data were processed

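Per the labels' protocols, RNA from 7 mouse spleens was enriched by oligo(dT) selection or by removal of ribosomal RNA (which of them is not given in the sources used here) and read on the BGISEQ-500 platform. Per the file headers, the authors deposited 1 FPKM column for each library, with at most 2 decimals. The submitters' processing notes name HISAT, HISAT2 2.0.4, Bowtie2, RSEM and the build GRCm38.p5, with no role for each. RSEM-type FPKM divides by transcript length and total fragments, so abundant genes and length-related differences between libraries shift all other values. Haemoglobin genes took 7.7% to 30.9% of the FPKM sum.

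The 9 genes were matched by symbol. Their members and the related lists were chosen with earlier results of these data known. On the log2(FPKM + 1) scale, 11378 genes reached an average of 1 FPKM over the libraries and were fitted in limma (version 3.58.1, R 4.3.3, empirical Bayes with a trend), in 1 fit with a term per group, so that the 4 groups share 1 estimate of the spread. Contrasts with the lone 6 h GdX-/- library assume that it varies like the other groups. A further fit had genotype and time as terms. P-values are two-sided, adjusted by Benjamini-Hochberg over all tested genes, with a threshold of 0.05. The fits were also run on simulated data with independent noise for each gene and library. That run does not cover deviations shared across genes, such as those between the wild-type libraries. Depth was estimated from the steps between low FPKM values of genes with known transcript length, and the fragments per gene derived from it are estimates.

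Named genes were the 9 members, up to 2 higher and 2 lower called genes per list with the smallest p (or, with none called, the 2 with the highest mean), and the 2 nearest profiles per member. Alternatives were a pseudocount of 0.1, no filter, a mean of at least 5 FPKM, quantile normalization, scaling on genes other than haemoglobin, removal of a length trend, a replicate block, only the libraries compared, no trend, and each library left out.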

Additional observations from a re-analysis of the deposited data

How the results depend on the processing

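With 1 or 2 libraries per group, single libraries decide several calls. Over time in wild type, 4 called members became 0 with no filter on low values and 2 with scaling on genes other than haemoglobin, and 1 to 5 when 1 library was left out. For genotype at 6 h, 1 called member became 0 with no filter, 0 with haemoglobin-free scaling and 1 to 3 when 1 library was left out. The interaction had 0 to 1 and genotype with time as a covariate 0 to 1 when 1 library was left out. Over all genes, the 1218 calls over time in wild type became 635 with no filter, 1950 with the length trend removed and 450 to 1774 with 1 library left out, and the 450 calls for genotype at 6 h became 90, 1117 and 627 to 3035. The 2 calls at 90 min became 181 when only the libraries compared entered the fit, and 0 to 183 over the other alternatives. The 0 calls over time in GdX-/- became 22 with no filter, 44 with the length trend removed, 37 with a replicate block and 0 to 236 with 1 library left out, and the 8 interaction calls became 61 with the length trend removed, 80 with the block and 0 to 238. The causes were not tested.

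Same-numbered libraries deviated together in wild type, where replicate differences at the 2 times correlated across genes at 0.768. They did not across the genotypes, with 0.08 between GdX-/- at 90 min and wild type at 6 h, and -0.12 between the genotypes at 90 min, so the numbers were not taken as pairs for the 4 groups. With a replicate block, 5 members passed over time in wild type, with Clec10a at an adjusted p of 0.0287 (0.0287 to 0.283 over 15 alternatives), and 2345 genes were called, while 4 members passed for genotype at 6 h (Clec9a, Zbtb46, Itgax and Siglech) and 3383 genes were called.

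For genotype at 6 h Itgax (12 of 14 alternatives) and, over time in wild type, Clec9a (14 of 15), Itgax (13 of 16), Zbtb46 (11 of 16) and Siglech (11 of 16) passed the threshold, with the same sign in each alternative run. Signs changed for differences that had not passed. With quantile normalization these were Itgax at 90 min (-0.09), Flt3 for genotype at 6 h (-0.36), Zbtb46 and Siglech over time in GdX-/- (-0.17 each), the Ly75 interaction (-0.29), and Zbtb46 (-0.12) and Siglech (-0.19) with time as a covariate. With the length trend removed they were Itgax at 90 min (-0.10), Flt3 at 6 h (-0.07), Batf3 over time in GdX-/- (0.01), the Batf3 interaction (0.05) and Clec10a with time as a covariate (0.14). With haemoglobin-free scaling they were the Batf3 interaction (0.02), and Flt3 (0.03) and Clec10a (0.07) with time as a covariate. With 1 library left out, ranges crossed 0 for Batf3 over time in wild type (-0.58 to 0.54) and in GdX-/- (-0.41 to 0.26) and in the interaction (-0.61 to 0.51), for Ly75 over time in wild type (-0.75 to 1.46), at 6 h (-0.29 to 1.93) and in the interaction (-1.01 to 1.21), for Clec9a (-0.09 to 0.73) and Itgax (-0.11 to 0.18) at 90 min, for Flt3 at 6 h (-0.01 to 0.14), for Zbtb46 (-0.03 to 0.31) and Siglech (-0.02 to 0.29) over time in GdX-/-, and for Zbtb46 (-0.29 to 0.42), Siglech (-0.39 to 0.30) and Clec10a (-0.63 to 0.18) with time as a covariate.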
